A study of Mus musculus with 4 samples.

Results

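Aminoacyl-tRNA synthetases are the enzymes that join each amino acid to its transfer RNA before translation. The genes were taken by symbol, and 37 of the 35147 genes in the table matched. Of these, 20 encode cytosolic enzymes and 17, marked by the suffix 2, encode mitochondrial ones. All 37 passed the filter of a mean FPKM (fragments per kilobase of transcript, scaled to library size) of at least 1, which left 17651 genes for testing.

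RNA was sequenced after immunoprecipitation from the ventricular-subventricular zone (V-SVZ), the neural stem cell niche along the lateral ventricles, of CD1 mice, wild-type and aged postnatal day 7 or 8. The precipitating antibody was anti-4E-T or a control anti-IgG, and each antibody was used once in experiment 1 and once in experiment 2, giving 2 libraries per group. All 4 libraries share the genotype, the strain, the tissue and the age, and the labels name no treatment. 4E-T, made by Eif4enif1, binds the cap-binding protein eIF4E, represses translation and sits in P-bodies, which are cytoplasmic granules of RNA and protein. No label says whether each experiment had its own animals or litters, or pooled tissue, so a p-value here measures only the spread between these libraries, which may be technical. In whole tissue, fewer cells with an RNA and less of that RNA per cell cannot be told apart. All 4 libraries are precipitates, with no input library among them. RNA held with 4E-T, unspecific carry-over and a difference in the IgG background therefore cannot be told apart either. Where a gene is said to rise or fall, its level after anti-4E-T is compared with that after IgG, which is not its expression in the tissue.

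The cytosol and the mitochondrion each need a full set of charged transfer RNAs. Most amino acids have a separate nuclear gene for each compartment, but Gars (glycine) and Kars (lysine) make the enzyme for both. Several cytosolic enzymes are held together with the AIMP scaffold proteins in the multisynthetase complex. Uncharged transfer RNA activates the kinase GCN2 (Eif2ak4), which phosphorylates eIF2 and raises the transcription factor ATF4, and many cytosolic synthetase genes are known targets of ATF4.

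Gene reads recovered from the table numbered 14421019 and 24780150 for IgG replicates 1 and 2, and 23006357 and 28749439 for 4E-T replicates 1 and 2. Markers of neural stem cells, precursors, neuroblasts, oligodendrocytes, ependyma, microglia, vessels and striatal neurons were all present, with no gene of these lists at 0 reads in any library. Olfactory and vomeronasal receptor genes, which belong to the nose, took most in IgG replicate 1, at 0.233% of its reads. Experiment 1 had 0.054% after anti-4E-T, while experiment 2 had 0.0408% with IgG but 0.0136% with 4E-T. Their share with 4E-T was thus 0.232 and 0.335 times that with IgG, a difference in both experiments. Vascular markers (12 of 12 in the table) fell from 0.106% to 0.0277% in experiment 1, and from 0.0441% to 0.0324% in experiment 2. Genes at 0 reads rose from 77 with IgG to 442 with 4E-T in experiment 1, and from 676 to 2689 in experiment 2. The part of a higher IgG background in this was not tested. With the experiment as a block, 8 of those 12 vascular genes were lower in 4E-T and 0 higher. The count of vascular genes called lower was 5 on FPKM rescaled to a common total, 1 after quantile normalization and 11 on the recovered reads. In those same 3 fits 3 of 4 red blood cell genes were lower, against 0 on the deposited FPKM. After quantile normalization 6 of 8 microglial and 5 of 10 stem cell and astroglial markers were lower, against 1 and 0 on the deposited FPKM. Another 2 of those 10, Sox2 and Hes5, were higher in each of the 4 fits with the block. Of 8 oligodendrocyte markers Sox10 and Olig2 were higher in each fit, and 2 were lower after quantile normalization. Of all tested genes, 17.5% were higher and 4.44% lower on the deposited FPKM, and 10.4% and 9.23% after quantile normalization. Of 6 markers of transit-amplifying precursors 4 were higher and 0 lower, with 0.0572% and 0.0511% of reads in IgG and 0.132% and 0.0820% in 4E-T. The part of these differences in the results below was not tested. Eif4enif1 itself had 20.3 and 27.6 FPKM in IgG and 36.2 and 43.6 in 4E-T (adjusted p = 0.0585, limma with the block), which is the level of its RNA and says nothing of the protein precipitated.

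Synthetase mRNAs tended to stand higher after precipitation with anti-4E-T than with IgG, and the largest log2 fold changes were those of Sars, Vars, Sars2 and Hars2, for serine, valine and histidine. In the limma fit blocked by experiment, 10 of the 37 were higher, or 27.0%, against 17.5% of all tested genes, and 0 were lower, against 4.44%. The 10 were Sars, Vars, Farsa, Eprs, Cars and Tars of the cytosol and Sars2, Hars2, Rars2 and Aars2 of the mitochondrion. On FPKM rescaled to a common total, 11 were higher (29.7%, against 15.1%) and 0 lower (against 6.28%). Called higher in each of the 4 blocked fits, which scaled the libraries in different ways, were 7 members (Cars, Eprs, Farsa, Hars2, Sars, Sars2 and Vars), or 18.9% against 9.56% of all tested genes, and 0 were lower in each, against 1.81%.

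Without the block limma called 0 of the 37 in either direction, against 0.00567% of all tested genes higher. At an unadjusted p under 0.05 without the block, 3 members were higher (Hars2, Sars and Sars2), or 8.11% against 11.2%, and 0 were lower, against 1.78%. The blocked fit has 1 residual degree of freedom and takes the spread of a gene largely from the trend across genes. In the authors' deposited table, members numbering 8 had an adjusted p under 0.05 and a higher level (21.6%, against 10.7% of the genes with an adjusted p), namely the same 7 and Rars2, and 0 were lower, against 2.61%.

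**Figure D1:**
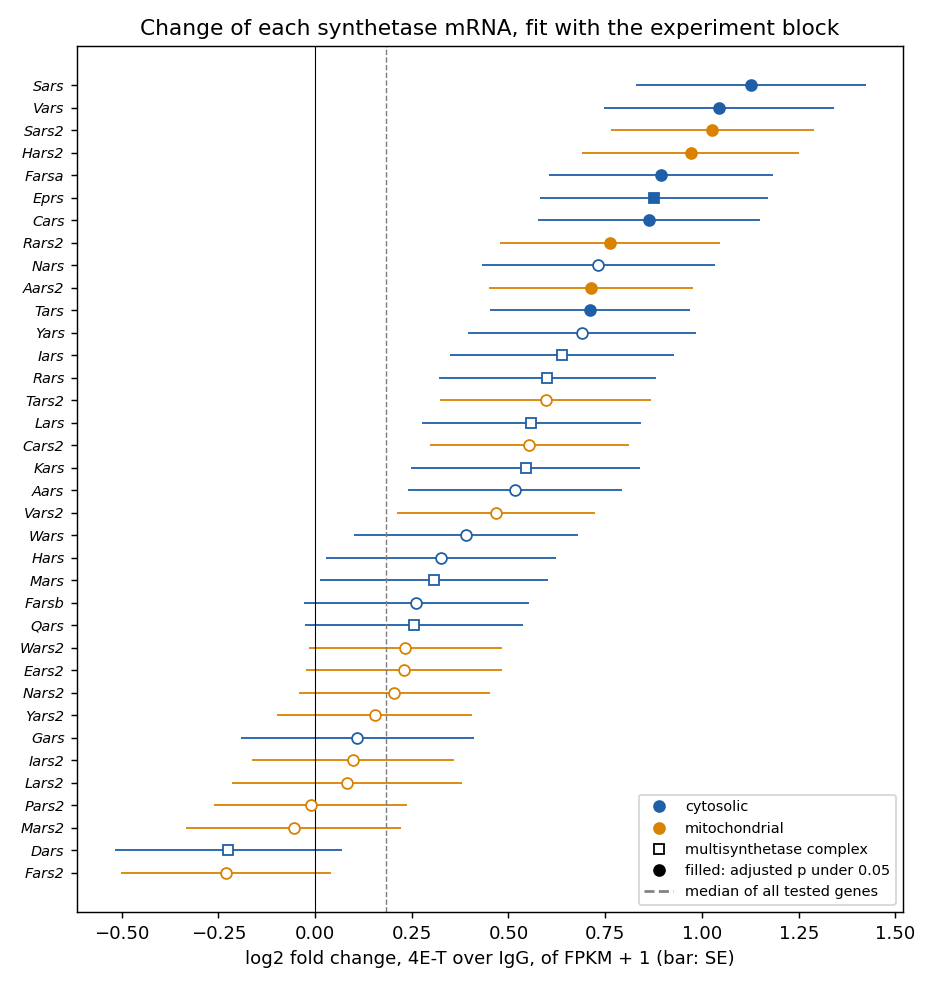
Log2 fold change of FPKM + 1, 4E-T over IgG, for 36 of the 37 synthetase mRNAs, each with its SE from the limma fit with the experiment block. Filled symbols mark the 10 genes with an adjusted p under 0.05, squares the enzymes of the multisynthetase complex, and the dashed line the median of all tested genes. Sars is highest at 1.13 and Fars2 lowest at -0.23.

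In experiment 1, 36 of the 37 mRNAs were higher in 4E-T (97.3%, against 74.4% of all tested genes), and in experiment 2, 31 were (83.8%, against 56.3%). Those 31 were higher in both (83.8%, against 49.4%). The median gene itself differed by 0.32 on the log2 scale in experiment 1 and by 0.081 in experiment 2. The deposited FPKM are also scaled differently in each library. Set against those medians, 22 members lay above them in both experiments (59.5%, against 36.9%) and 7 lay below them in both (18.9%, against 36.9%).

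**Figure D2:**
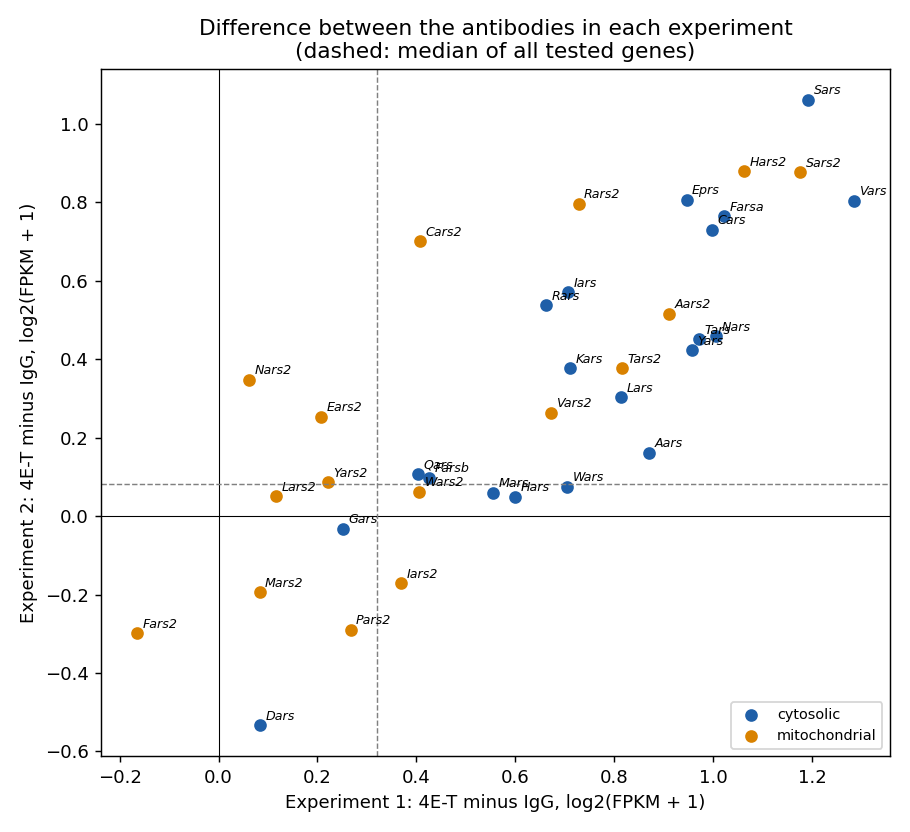
Difference between 4E-T and IgG on log2(FPKM + 1) in experiment 1 (horizontal) and experiment 2 (vertical) for 36 of the 37 synthetase mRNAs; dashed lines mark the medians of all tested genes, 0.32 and 0.081. Sars, Sars2, Hars2 and Vars sit at the upper right, and Fars2 is below 0 in both experiments.

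On the deposited FPKM with all libraries, the mRNAs of the cytosolic enzymes stood further above the typical gene than those of the mitochondrial enzymes. The median log2 fold change was 0.58 over the 20 cytosolic and 0.23 over the 17 mitochondrial members, beside 0.18 over all tested genes. Relative to the median of all genes, the cytosolic median was 0.44 in experiment 1 and 0.32 in experiment 2, and the mitochondrial median 0.047 and 0.17. After quantile normalization these relative medians were 0.19 and 0.17, so the gap between the compartments was small on that scale, while they were 0.38 and 0.069 on FPKM rescaled to a common total (TPM) and 0.39 and 0.075 on the recovered reads. Without IgG replicate 1 the relative medians were 0.097 for the cytosolic and 0.048 for the mitochondrial members, so the gap was small there too, and without IgG replicate 2 they were 0.60 and -0.0012. The gap itself was not tested.

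As a share of gene reads, the cytosolic mRNAs took 0.165% (95% Wilson interval 0.163 to 0.167) and 0.188% (0.186 to 0.189) with IgG, and 0.208% (0.206 to 0.210) and 0.230% (0.228 to 0.232) with 4E-T. Both 4E-T libraries lay above both IgG libraries, by 1.26-fold in experiment 1 and 1.23-fold in experiment 2. The mitochondrial mRNAs without Lars2 took 0.0554% and 0.0504% in IgG and 0.0586% and 0.0564% in 4E-T, ratios of 1.06 and 1.12. These intervals cover counting error only, and with 2 libraries against 2 an exact permutation test cannot give a two-sided p below 0.333.

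**Figure D3:**
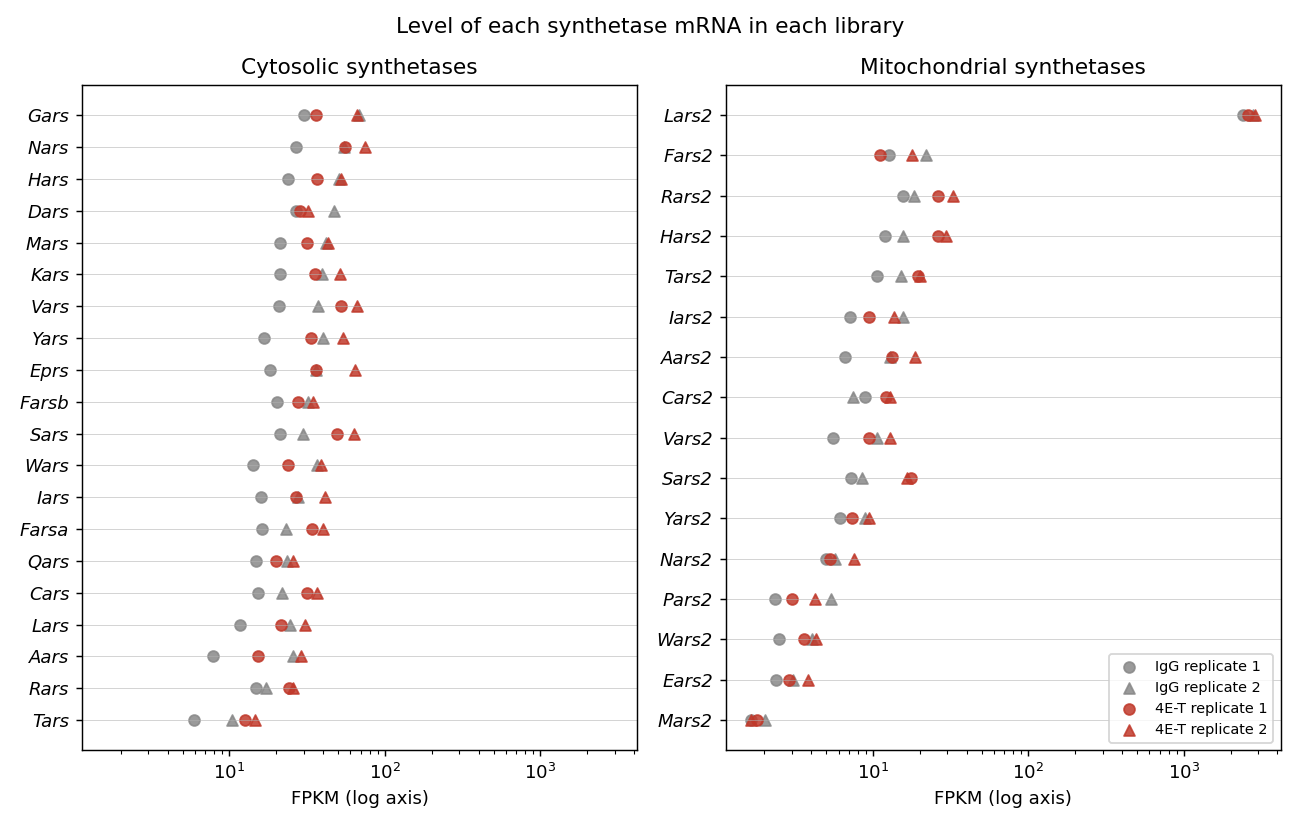
FPKM of 36 of the 37 synthetase mRNAs in each library on a log axis, cytosolic enzymes on the left and mitochondrial ones on the right, ordered by their mean in IgG. Grey marks IgG and red 4E-T, circles experiment 1 and triangles experiment 2. For Gars and Aars the gap between the experiments is wider than that between the antibodies.

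Levels are per length in FPKM, and the cytosolic mRNAs were the more abundant set. Their median FPKM was 17.5 and 34.1 in IgG and 31.5 and 40.8 in 4E-T, against 6.59, 8.83, 9.47 and 12.9 for the mitochondrial set. Among cytosolic members Gars was highest in both IgG libraries, at 29.97 and 67.6 FPKM, and Nars, for asparagine, in both 4E-T libraries, at 55.2 and 74.9. Tars, for threonine, was the lowest cytosolic member in every library. Mars2, the mitochondrial methionine enzyme, was the lowest of all members, between 1.64 and 2.02 FPKM.

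Both serine enzymes rose, and they were the only pair of partners of which both members passed with the block. Sars, the cytosolic seryl-tRNA synthetase at chr3:108424864-108445259 (GRCm38, the mm10 build), had 21.1 and 29.9 FPKM in IgG and 49.4 and 63.4 in 4E-T. The groups did not overlap, and the fold of FPKM was 2.35 in experiment 1 and 2.12 in experiment 2. Its log2 fold change of FPKM + 1 was 1.13 (SE 0.30; limma with and without the block, adjusted p = 0.00172 and 0.328).

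Sars2, the mitochondrial seryl enzyme at chr7:28741957-28753879, had 7.23 and 8.50 FPKM in IgG and 17.6 and 16.4 in 4E-T. Here too both 4E-T libraries were above both IgG libraries, by 2.44-fold and 1.93-fold. The log2 fold change came to 1.03 (SE 0.26; limma with and without the block, adjusted p = 0.00117 and 0.267). The cytosolic serine enzyme, made by Sars, also charges the transfer RNA that is later converted to carry selenocysteine. Secisbp2 encodes a binding protein of the selenocysteine insertion element. It had 6.53 and 9.02 FPKM in IgG and 19.2 and 23.0 in 4E-T (log2 fold change 1.34, SE 0.27, adjusted p = 1.53e-05, limma with the block). Secisbp2 had the largest rise of the called genes in a list of 18 relatives and helpers of charging. The median log2 fold change of that list was 0.098, beside 0.18 for all tested genes. A link between Secisbp2 and the serine enzymes was not tested.

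Across all tested genes, both 4E-T libraries lay above both IgG libraries for 32.6%, and among the synthetases for 14 of 37, or 37.8%. The opposite order was found for 8.13% of all tested genes and for 0 members. On FPKM rescaled to a common total, the groups were separated upward for 16 of 37, or 43.2%, against 30.0% of all tested genes. On that scale Iars, Kars and Vars2 were separated and Cars2 was not, and separation named for single genes refers to the deposited FPKM.

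Among the other cytosolic enzymes outside the complex, Vars, Farsa, Cars and Tars rose. Vars, the valyl enzyme, which binds the elongation factor eEF1 and lies at chr17:35000907-35016329, had 21.0 and 37.4 FPKM in IgG and 52.5 and 65.9 in 4E-T. The groups were separate, with folds of 2.50 and 1.76 and a log2 fold change of 1.04 (SE 0.30; limma adjusted p = 0.00423 with the block). Its log2 fold change was 0.64 without IgG replicate 1 and 1.45 without IgG replicate 2, in fits without a block.

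Cars, the cysteinyl enzyme, had 15.2 and 21.7 FPKM in IgG and 31.3 and 36.6 in 4E-T. Its groups did not overlap, and the log2 fold change came to 0.86 (SE 0.29; limma adjusted p = 0.0170 with the block). Tars had 5.92 and 10.4 FPKM in IgG and 12.6 and 14.6 in 4E-T. It passed with the block (limma adjusted p = 0.0314), but not after quantile normalization (0.160) or on the recovered reads (0.0655). Its log2 fold change went from 0.71 to 0.35 without IgG replicate 1 and to 1.07 without IgG replicate 2.

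Yars, the tyrosyl enzyme, had 16.6 and 40.1 FPKM in IgG and 33.2 and 54.1 in 4E-T, so the groups overlapped (adjusted p = 0.0750, limma with the block). Nars had 27.0 and 54.2 FPKM in IgG and 55.2 and 74.9 in 4E-T, with a log2 fold change of 0.73 that missed the threshold on the deposited FPKM (adjusted p = 0.063, limma with the block) and passed on TPM (0.0441). Aars, for alanine, ran from 7.82 to 25.5 FPKM within IgG and from 15.1 to 28.7 within 4E-T. Its log2 difference was 0.87 in experiment 1 and 0.16 in experiment 2 (adjusted p = 0.178, limma with the block).

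Wars (tryptophan) and Hars (histidine) showed the same split between the experiments. Wars had 14.2 and 36.7 FPKM in IgG and 23.8 and 38.6 in 4E-T. Hars had 23.6 and 50.4 FPKM in IgG and 36.3 and 52.2 in 4E-T. In both genes IgG replicate 1 was the low library and the remaining IgG library was close to 4E-T replicate 2. Gars, which serves both compartments, had 29.97 and 67.6 FPKM in IgG and 35.9 and 66.1 in 4E-T, with a log2 fold change of 0.11 (SE 0.30; adjusted p = 0.859, limma with the block).

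The cytosolic phenylalanyl enzyme is built from an alpha subunit, made by Farsa, and a beta subunit, made by Farsb. Farsa had 16.2 and 23.2 FPKM in IgG and 34.03 and 40.1 in 4E-T and rose with the block (log2 fold change 0.89, SE 0.29, limma adjusted p = 0.0137). Farsb had 20.4 and 32.1 FPKM in IgG and 27.7 and 34.5 in 4E-T, with a log2 fold change of 0.26 (SE 0.29, limma adjusted p = 0.598). The mRNAs of the subunits of this enzyme therefore had different values, and their ratio within a library does not depend on how libraries are scaled. The ratio of Farsa to Farsb was 0.798 and 0.722 in IgG and 1.23 and 1.16 in 4E-T, a log2 change of 0.62 in experiment 1 and 0.69 in experiment 2. Fars2, the mitochondrial enzyme, had 12.6 and 22.0 FPKM in IgG and 11.1 and 17.7 in 4E-T. It was the single member with a lower value in 4E-T in both experiments, and the ratio of Farsa to Fars2 went from 1.29 and 1.05 in IgG to 3.06 and 2.26 in 4E-T.

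**Figure D4:**
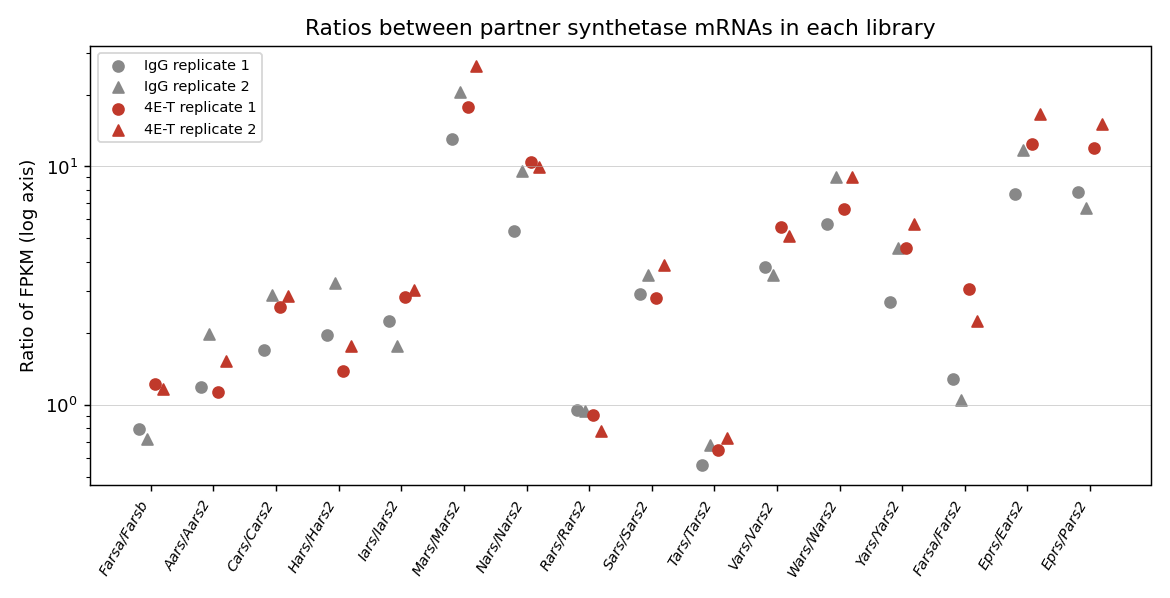
Ratio of FPKM between partner synthetase mRNAs in each library, on a log axis; grey marks IgG and red 4E-T, circles experiment 1 and triangles experiment 2. Farsa/Farsb and Vars/Vars2 are higher and Hars/Hars2 is lower in both 4E-T libraries than in both IgG libraries, while Sars/Sars2 overlaps. Some pairs, Lars/Lars2 among them, are left out.

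Partner genes for the same amino acid did not always share a value. The ratio of Hars to Hars2 was 1.98 and 3.25 in IgG and 1.39 and 1.78 in 4E-T, a log2 change of -0.50 in experiment 1 and -0.87 in experiment 2. Hars2 rose, with 11.9 and 15.5 FPKM in IgG and 26.0 and 29.4 in 4E-T (log2 fold change 0.97, SE 0.28; adjusted p = 0.00476, limma with the block), while Hars did not pass (0.498). The spans of these genes overlap in RefSeq by a few bases, as Hars2 begins at chr18:36783202 and Hars ends at chr18:36783205. No source used here gives the strand setting of the counting, so reads at that short overlap are uncertain. Reads at an overlap are uncertain for other members too, among them Farsb (overlapping Sgpp2), Aars (Ddx19b), Wars (Wdr25) and Iars2 (Rab3gap2). The sizes of those overlaps were not measured. This limit therefore also bears on the ratio of Farsa to Farsb.

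For valine the ratio of Vars to Vars2 was 3.80 and 3.52 in IgG and 5.60 and 5.09 in 4E-T, a log2 change of 0.56 and 0.53. Vars2 had 5.52 and 10.6 FPKM in IgG and 9.39 and 12.9 in 4E-T (adjusted p = 0.191, limma with the block). The serine ratio, in contrast, was 2.92 and 3.51 in IgG and 2.81 and 3.85 in 4E-T, and the groups overlapped. For alanine the ratio of Aars to Aars2 was 1.19 and 1.99 in IgG and 1.14 and 1.53 in 4E-T. None of these changes in ratio can reach an exact permutation p below 0.333.

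Other mitochondrial enzymes that passed with the block were Rars2 and Aars2. Rars2, for arginine, had 15.5 and 18.3 FPKM in IgG and 26.3 and 32.5 in 4E-T, so the groups were separate. Its log2 fold change came to 0.76 (SE 0.28; adjusted p = 0.0370, limma with the block), and it did not pass after quantile normalization (0.131) or on the recovered reads (0.0555). The span of Rars2 overlaps that of Orc3 in RefSeq, where reads are likewise uncertain. Aars2 had 6.59 and 12.8 FPKM in IgG and 13.3 and 18.8 in 4E-T (adjusted p = 0.0345, limma with the block). That call was also lost after quantile normalization (0.145) and on the recovered reads (0.0719), and the log2 fold change went from 0.71 to 0.28 without IgG replicate 1 and to 1.15 without IgG replicate 2.

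Cars2 and Tars2 had separated groups without passing. Cars2 had 8.88 and 7.49 FPKM in IgG and 12.1 and 12.8 in 4E-T (adjusted p = 0.11, limma with the block), and Tars2 had 10.6 and 15.2 in IgG and 19.4 and 20.04 in 4E-T (adjusted p = 0.102). The remaining mitochondrial members, leaving out Lars2 and Fars2, included Ears2, Wars2, Nars2, Yars2, Iars2, Pars2 and Mars2. Their log2 fold changes ran from -0.056 for Mars2 to 0.23 for Wars2, and limma with the block gave each an adjusted p of at least 0.579. Iars2 had 7.11 and 15.6 FPKM in IgG and 9.47 and 13.7 in 4E-T, Pars2 2.35 and 5.40 in IgG and 3.03 and 4.23 in 4E-T, and in both the antibodies differed in opposite directions in the 2 experiments.

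Within the multisynthetase complex, 1 of 8 enzyme genes rose with the block (Eprs; 12.5%, against 17.5% of all tested genes) and 0 fell (against 4.44%). After quantile normalization and on the recovered reads, Eprs was still the 1 called higher and Dars was called lower. Of all tested genes 10.4% were higher and 9.23% lower after quantile normalization, and 13.2% and 11.5% on the recovered reads. Eprs, a fused enzyme for glutamate and proline at chr1:185361417-185428360, had 18.3 and 36.1 FPKM in IgG and 36.2 and 63.8 in 4E-T. The second IgG library and the first 4E-T library were almost level, so that the groups barely separated, but each experiment showed nearly the same fold, 1.98 and 1.77. The log2 fold change came to 0.88 (SE 0.30; limma with and without the block, adjusted p = 0.0185 and 0.515). It was 0.40 without IgG replicate 1, 1.35 without IgG replicate 2 and 0.48 without 4E-T replicate 2.

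Dars, the aspartyl enzyme of the complex, stood at the other end. It had 26.8 and 47.0 FPKM in IgG and 28.5 and 32.2 in 4E-T, with a log2 difference of 0.084 in experiment 1 and -0.53 in experiment 2. On the deposited FPKM it did not pass (log2 fold change -0.22; adjusted p = 0.667, limma with the block). It was lower after quantile normalization (-0.61, limma adjusted p = 0.00561) and on the recovered reads (-0.52, adjusted p = 0.0466), as was Fars2 (-0.62 with adjusted p = 0.00954, and -0.55 with adjusted p = 0.0327), while neither passed on TPM. Those 2 members are 5.41% of the 37, against 9.23% of all tested genes called lower after quantile normalization and 11.5% on the recovered reads.

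The other complex members lay between Eprs and Dars. Iars (isoleucine) had 16.0 and 27.6 FPKM in IgG and 26.8 and 41.5 in 4E-T, and Rars (arginine) 14.8 and 17.2 in IgG and 24.1 and 25.5 in 4E-T. Rars had separate groups and tight replicates, yet a log2 fold change of 0.60 that did not pass (adjusted p = 0.113, limma with the block). Kars had 21.3 and 39.2 FPKM in IgG and 35.5 and 51.1 in 4E-T, and Lars (leucine) 11.7 and 24.5 in IgG and 21.3 and 30.5 in 4E-T. Mars (methionine) had 21.3 and 41.5 FPKM in IgG and 31.7 and 43.3 in 4E-T, and Qars (glutamine) 14.7 and 23.5 in IgG and 19.8 and 25.4 in 4E-T. In these last 4 genes, and in Iars, the groups overlapped. Of the scaffold genes Aimp1, Aimp2 and Eef1e1, 0 of 3 passed with the block. Aimp1 had 4.27 and 5.82 FPKM in IgG and 6.36 and 9.94 in 4E-T (adjusted p = 0.0755, limma with the block).

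Lars2, the mitochondrial leucyl enzyme, had a level unlike that of any other member. It had 2389 and 2782 FPKM in IgG and 2590.0 and 2879.8 in 4E-T, which was 38.5-fold to 79.7-fold above the next member in the same library. It held more reads than any other gene of the table (rank 1), from 196433 to 256601 per library. Its share of gene reads was 1.36% and 0.949% in IgG and 1.03% and 0.893% in 4E-T. The mouse Lars2 gene is known to contain a stretch resembling ribosomal RNA, so these reads cannot be taken as a measure of the mRNA, and its log2 fold change of 0.083 (adjusted p = 0.896, limma with the block) is uncertain. All 37 members together went from 1.58% of reads with IgG to 1.30% with 4E-T in experiment 1, whereas without Lars2 they went from 0.22% to 0.266%, so sums over the family follow Lars2.

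Sequence gave another way to group the cytosolic genes. ATF4 with C/EBP partners binds a composite element of the form TGATGNAA, which was searched on both strands (the reverse complement reads TTNCATCA) in RefSeq windows of GRCm38.p6 from 250 bases before to 50 after the start site. Windows matched 27 of the 37 members, among them 13 of the 20 cytosolic ones. Members without a window were not searched, so a gene missing from the matches below may still hold the element. The element was found in 5 of 13 cytosolic members and 0 of 14 mitochondrial ones, against 1219 of 27025 genes with a window, or 4.51%. Counted by window, 3.97% of 32851 held it. The 30 bases around a match in each gene are shown because they are the feature these 5 genes share, with the element in capitals.
Aars, chr8:111033840-111033869, plus strand: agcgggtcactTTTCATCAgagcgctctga
Gars, chr6:55037960-55037989, plus strand: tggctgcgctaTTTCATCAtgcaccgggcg
Iars, chr13:49682126-49682155, plus strand: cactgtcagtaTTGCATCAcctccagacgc
Tars, chr15:11399655-11399684, minus strand: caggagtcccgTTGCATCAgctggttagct
Yars, chr4:129189895-129189924, plus strand: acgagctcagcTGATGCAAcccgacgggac

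A match describes the letters and is not evidence of binding. The element shown lay close to the start site of its own window in Aars, Gars, Iars, Tars and Yars. A gene can have several windows. For Aars and Yars that start site lies inside the gene span, which begins at chr8:111027778 and chr4:129189734. Of these 5 genes 1, Tars, was higher with the block, against 17.5% of all tested genes. The log2 fold changes of the others were 0.69 for Yars, 0.64 for Iars, 0.52 for Aars and 0.11 for Gars. Without IgG replicate 1 those of Yars and Iars were 0.080 and 0.27, and without IgG replicate 2 they were 1.30 and 1.01.

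Genes of the amino acid response moved in both directions. Of 32 tested genes of that list, 3 rose (9.38%) and 2 fell (6.25%) with the block, against 17.5% and 4.44% of all genes. Ddit3, a stress transcription factor whose gene span overlaps that of Mars and whose reads there are uncertain, had 8.41 and 14.0 FPKM in IgG and 21.3 and 25.2 in 4E-T (log2 fold change 1.02; adjusted p = 0.00204, limma with the block). Cebpb, a partner of ATF4, and Cbs, an enzyme of cysteine synthesis, were the others that rose. The amino acid transporters Slc7a1 and Slc7a5 fell. Slc7a5 had 46.4 and 71.2 FPKM in IgG and 28.0 and 38.5 in 4E-T, and Slc7a1 9.16 and 7.80 in IgG and 3.79 and 4.23 in 4E-T. Slc7a1 and Slc7a5 are also expressed in brain vessels, whose markers were lower in the same precipitates, and the part of that in these values was not tested.

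Of 16 tested genes for eIF2, its exchange factor and its kinases and phosphatases, 3 rose and 0 fell with the block (18.8%, against 17.5%). Ppp1r15a, which guides a phosphatase to eIF2, had 6.12 and 14.4 FPKM in IgG and 30.6 and 51.0 in 4E-T, and its log2 fold change came to 1.95 (SE 0.28; adjusted p = 1.10e-09, limma with the block). Eif2s2, the beta subunit of eIF2, and Eif2b4, a subunit of its exchange factor, also rose, with log2 fold changes of 1.63 and 0.85.

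Genes for processing and modifying transfer RNA often rose, with 24 of 66 higher and 0 lower with the block (36.4%, against 17.5%). Their median log2 fold change was 0.54, beside 0.58 for the cytosolic synthetases and 0.18 for all tested genes. Trmu, which adds sulphur to mitochondrial transfer RNAs, had 13.7 and 13.3 FPKM in IgG and 40.1 and 47.8 in 4E-T, with close IgG replicates and separate groups (log2 fold change 1.63, SE 0.29; adjusted p = 1.00e-06, limma with the block). Trmt5 and Trmt13, transfer RNA methyltransferases, had log2 fold changes of 1.36 and 1.34. Quantile normalization left 13 higher and 2 lower, against 10.4% and 9.23% of all tested genes. The recovered reads gave 17 and 1, against 13.2% and 11.5%.

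Of 12 mitochondrial translation factors, 5 rose with the block and 0 fell (41.7%, against 17.5%), among them Guf1, Mtrf1l and Mtfmt, which formylates the initiator methionine after charging. Quantile normalization left 1 of the 12 higher, against 10.4% of all tested genes, and the recovered reads 3, against 13.2%. Mtfmt had 6.69 and 5.37 FPKM in IgG and 10.6 and 14.3 in 4E-T (adjusted p = 0.00285, limma with the block). Of 9 cytosolic elongation factor genes 0 passed with the block on the deposited FPKM. On the recovered reads 1 was called lower, against 11.5% of all tested genes. The median of the 9 was 0.18, which was that of all genes. The difference between the lists was not tested. Of 18 relatives and helpers of charging 4 rose with the block (22.2%, against 17.5%). The median log2 fold change of the 18 was 0.098, beside 0.18 for all tested genes. Among the 4 was Tarsl2, a second cytosolic threonyl enzyme, with 7.79 and 11.5 FPKM in IgG and 12.9 and 23.5 in 4E-T. The call of Tarsl2 was lost after quantile normalization (adjusted p = 0.088, limma). There the list had 1 gene higher and 2 lower, against 10.4% and 9.23% of all tested genes. The recovered reads gave 3 and 1, against 13.2% and 11.5%.

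The size of many differences depended on which library was left out. For each gene, leaving out either IgG library moved the value equally far in opposite directions, so these fits cannot single out IgG replicate 1. Without IgG replicate 2, for example, the log2 fold change was 1.37 for Sars and 1.31 for Aars. The cytosolic median was 0.81 without 4E-T replicate 1 and 0.32 without 4E-T replicate 2. In fits without a block, leaving out IgG replicate 1 gave a cytosolic median of 0.099, and leaving out IgG replicate 2 gave 1.05. The median of all tested genes moved as well, to 0.0024 and 0.46 in these fits. The single values that follow are not set against that median. Without IgG replicate 1 the log2 fold changes of Sars, Sars2, Hars2, Farsa and Cars were 0.88, 0.92, 0.80, 0.65 and 0.62. Those of Nars, Lars, Kars and Vars2 were 0.24, 0.055, 0.12 and 0.050, beside 0.73, 0.56, 0.54 and 0.47 with all libraries. Those of Aars, Wars, Hars, Mars and Gars turned to -0.28, -0.26, -0.21, -0.16 and -0.46.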

How the data were processed

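Per the submitters' processing notes, the tools were STAR 2.6.0c and HTSeq 0.6.1p2, beside Trim Galore 0.5.0 and FastQC 0.11.5, with DESeq and DESeq2 1.26.0 and the mouse build mm10. No source used here gives the annotation or strand setting. The labels' protocols name a MAGNA RIP kit, SMART-Seq v4 cDNA and Nextera XT libraries. The authors deposited FPKM per library. Per the file headers, the authors' DESeq2 comparison gives a mean normalized signal, a log2 fold change with its SE, a Wald score, p-values and a linear fold change.

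Genes whose mean FPKM reached 1 were fitted with limma 3.58.1 (R 4.3.3) on log2(FPKM + 1), with trended, robust moderation, a two-sided test and Benjamini-Hochberg adjustment over all 17651 genes, threshold 0.05. Fold changes on this scale understate those of low genes. Antibody was the only term; a fit blocked by experiment number was planned beside it. The titles give the libraries a shared experiment number, read as a shared batch. Same-experiment libraries deviated together from their group means (r = 0.672 across genes, 0.491 after quantile normalization), so the block is printed where it changes a call. The plain r of log2(FPKM + 1) was 0.922 and 0.947 within experiments 1 and 2. It was 0.922 between the IgG libraries and 0.973 between the 4E-T libraries. IgG replicate 2 with 4E-T replicate 1 gave 0.926, and IgG replicate 1 with 4E-T replicate 2 gave 0.891. Pairing is thus not plain on that measure.

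Whole reads (100% within 0.001) were recovered from the FPKM and the authors' mean signal and fitted with limma-voom and TMM (trims 0.3 and 0.05). FPKM denominators differ: gene reads per unit of denominator, set to 1 in IgG replicate 1, were 1.67, 1.43 and 1.84 in IgG replicate 2, 4E-T replicate 1 and 4E-T replicate 2. The fits were also run on simulated counts, which had an experiment effect built in and no outlying library. That run cannot tell whether the block suits these data.

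The members and lists were chosen with earlier results of these data known. Values per library are given for members called in a fit, the 5 highest and 5 lowest, the complex, Gars and Kars, and partners of these; from each list, up to 3 called genes per direction with the largest change, else the 2 largest. Secisbp2 and Mtfmt fall under that rule. The values of 1 member, counted in all totals, and 1 promoter match are not reported here. Promoter windows and coordinates come from RefSeq (GRCm38.p6).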

Additional observations from a re-analysis of the deposited data

How the results depend on the processing

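With the replicate block 3090 of all genes were higher and 784 lower, against 1 and 0 without it; the block with TPM scaling gave 2672 and 1108, with quantile normalization 1843 and 1630, and with recovered reads 2327 and 2035. No filter gave 0 higher. Synthetases called higher numbered 10, 11, 7 and 7 in these blocked fits and 0 without the block, and 2 were lower with quantile normalization and with recovered reads. Leaving out 1 library gave 2 to 2441 genes higher, 0 to 1094 lower and 0 to 13 synthetases higher. The cytosolic median of 0.58 was 0.18 with quantile normalization and 0.32 on recovered reads, and 0.099 to 1.05 with a library left out. The mitochondrial median of 0.23 was 0.088 on TPM and -0.0021 on recovered reads, and 0.050 to 0.46 with a library left out. The ratio of shares of reads without Lars2 was 1.21 and 1.20 within the experiments.

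Log2 fold changes that turned in sign belonged to genes outside the 10 called with the block. On TPM they were Yars2 -0.030, Gars -0.093, Iars2 -0.090 and Lars2 -0.12. After quantile normalization they were Wars -0.0054, Hars -0.061, Mars -0.10, Farsb -0.14, Qars -0.15, Nars2 -0.073, Yars2 -0.16, Gars -0.26, Iars2 -0.23 and Mars2 0.0082. On recovered reads they were Farsb -0.026, Qars -0.028, Wars2 -0.0021, Nars2 -0.049, Yars2 -0.12, Gars -0.18, Iars2 -0.18 and Lars2 -0.22. A pseudocount of 0.1 turned Pars2 to 0.0056.

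With a library left out the ranges were -0.28 to 1.31 for Aars, -0.62 to 0.17 for Dars, -0.61 to 0.15 for Fars2, -0.056 to 0.58 for Farsb, -0.46 to 0.68 for Gars, -0.21 to 0.86 for Hars, -0.42 to 0.61 for Iars2 and -0.027 to 0.19 for Lars2. They were -0.16 to 0.77 for Mars, -0.15 to 0.043 for Mars2, -0.014 to 0.42 for Nars2, -0.48 to 0.46 for Pars2, -0.065 to 0.58 for Qars, -0.26 to 1.04 for Wars, -0.037 to 0.50 for Wars2 and -0.078 to 0.39 for Yars2. The cause of these turns was not tested. Fits with a library left out have no block, and the lone library of an arm is assumed to vary like the other arm.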
